A study of Mus musculus with 12 samples.

Results

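Hippocampal arrays were divided by the signal of Ttr, the thyroid hormone carrier transthyretin, which choroid plexus epithelium makes in large amounts. The 4 arrays with the lowest Ttr were set against the other 8 of the 12 arrays in the series, over all transcripts. The arrays were selected on measured Ttr signal alone and are called Ttr-low and Ttr-high arrays here. Ttr-low were 2 ethanol arrays (replicates 1 and 3) and 2 control arrays (replicates 1 and 4), so each side held as many ethanol as control mice, 2 and 2 against 4 and 4. All samples were hippocampus of male C57BL/6J mice aged 3 weeks, with 1 Illumina bead array each. The ethanol group came from dams that drank 10% ethanol by choice between 0.5 and 8.5 days post-coitum; the labels give no treatment for the dams of the control group. No transgene or allele is given for either group, and the labels do not say which mice shared a litter, so the error behind each p-value is the variation among these arrays, whatever its source. Each of 2 beadchips carried 3 arrays per group. Of the Ttr-low arrays 3 lay on beadchip 1 and 1 on beadchip 2, against 3 and 5 of the Ttr-high arrays (two-sided Fisher's exact test, p = 0.545).

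The choroid plexus hangs in the brain ventricles and lies against the hippocampus along the choroid fissure. Its epithelium is a single layer of cuboidal cells joined by tight junctions over a core of leaky vessels and stroma. It secretes cerebrospinal fluid by moving ions and water, carries vitamins and hormones into that fluid, and releases proteins such as transthyretin. Ependymal cells with motile cilia line the ventricle beside it, and meningeal fibroblasts continue into its stroma.

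Between 20804 and 21552 probes were detected on the Ttr-low arrays, and between 20910 and 21672 on the Ttr-high arrays. Median scanner intensities were 133.9 to 147.3 on the Ttr-low and 132.6 to 152.1 on the Ttr-high arrays. The hippocampal neuron markers Prox1, Wfs1, Fibcd1, Grik4 and Bok were each detected on 12 of 12 arrays. Ethanol replicate 1 stood apart from the other arrays on the second principal component, which held 12.6% of the variance. The first component held 27.3% and had the 4 Ttr-low arrays at one end.

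In the authors' processed values, which chose the arrays, the log2 signal of the 1 Ttr probe was 10.21 and 9.80 on ethanol replicates 1 and 3 and 11.07 and 8.74 on control replicates 1 and 4, against 15.57 to 15.81 on the Ttr-high arrays. The array just inside the division was control replicate 1 at 11.07, and the one just outside it was control replicate 3 at 15.57. No array lay between. On the Ttr-high arrays the probe read 48403 to 59100.6 scanner units, close to the brightest probe of the 12 arrays at 61021.4 to 66558.7, so the gap of Ttr itself may be understated there. Ttr is left out of the counts of lower and higher genes or probes below, apart from the named genes followed across alternative settings. It stays among the probes of the ethanol and interaction fits and among the values flagged at the end.

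The other 5 choroid plexus markers divided the arrays in the same way. All log2 signals from here on are scanner intensities after background correction and quantile normalization, and every difference is Ttr-low minus Ttr-high. Folr1, the folate receptor that carries folate into cerebrospinal fluid, had log2 signals of 4.94 and 4.75 on ethanol replicates 1 and 3 and of 4.93 and 4.76 on control replicates 1 and 4, against 9.24 to 9.94 (median 9.61) on the Ttr-high arrays. Its probe was detected on 0 of 4 Ttr-low arrays and on 8 of 8 Ttr-high arrays, and the signal was at least 18.3-fold lower in the Ttr-low arrays. A bound of this kind sets the Ttr-high mean against the dimmest signal still called detected on each Ttr-low array, or the probe's own signal where that was higher.

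Clic6, a member of the chloride intracellular channel family, read 7.66 and 5.12 on the ethanol and 7.07 and 4.80 on the control arrays low in Ttr, against 11.28 to 11.87 (median 11.62) on the Ttr-high arrays. Aqp1, the water channel of the apical membrane, read 5.32, 5.36, 5.77 and 5.21 in the same order of Ttr-low arrays, against 10.31 to 10.93 (median 10.68). Neither side overlapped the other. Aqp1 was detected on 1 and Clic6 on 2 of the 4 Ttr-low arrays, so the spread of Clic6 there lies between arrays with and without detection. Otx2, the homeobox factor that specifies and maintains choroid plexus epithelium, read 6.03, 4.70, 5.44 and 4.88, against 9.02 to 9.70 (median 9.33), and was detected on 1 of the 4 Ttr-low arrays. Kl, which encodes the hormone coreceptor klotho, read 7.57, 7.79, 8.04 and 7.50, against 10.01 to 10.72 (median 10.38). Kl was still detected on all 4 Ttr-low arrays, where its signal was 6.11-fold lower. The fitted differences were -5.44 ± 0.42 for Clic6, -5.21 ± 0.13 for Aqp1, -4.08 ± 0.21 for Otx2 and -2.61 ± 0.14 for Kl (log2, ± SE, n = 4 and 8). Those of Clic6, Aqp1 and Otx2 include arrays on which the probe was not detected, as do the differences below of genes detected on only some Ttr-low arrays. The second Folr1 probe and both other Aqp1 probes also passed the test as lower.

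**Figure D1:**
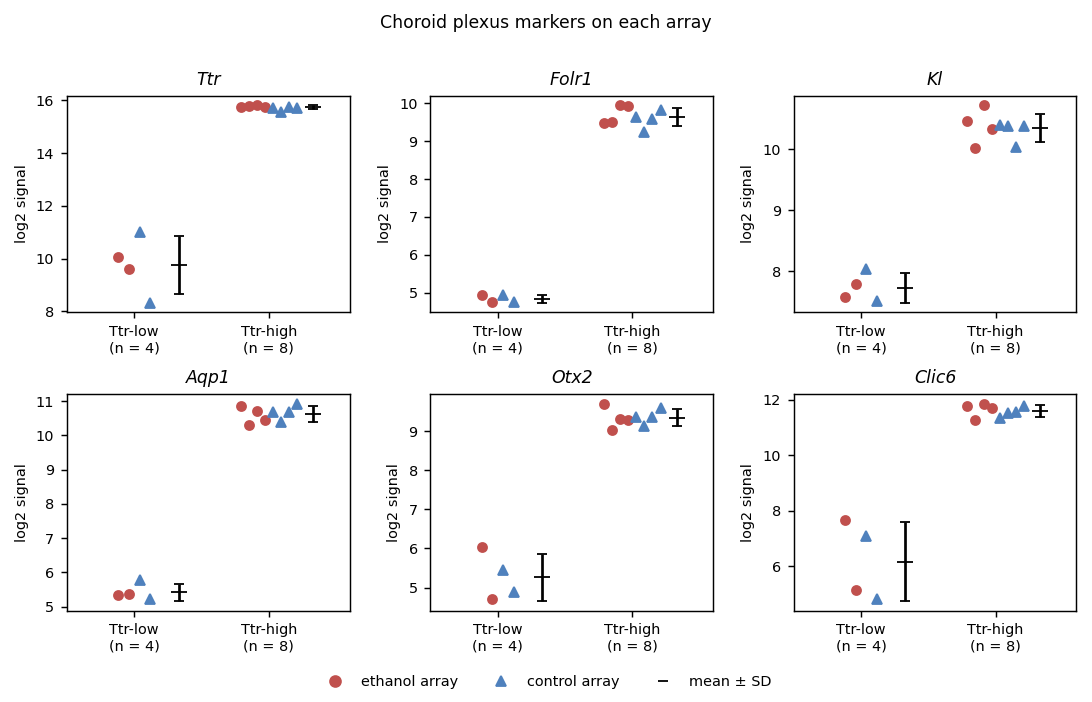
Log2 signal of Ttr and the 5 other choroid plexus markers on each array, with the 4 Ttr-low arrays left of the 8 Ttr-high arrays in every panel; circles are ethanol and triangles control arrays, and bars give mean ± SD. Neither side overlaps the other for any of the 6 genes, and ethanol and control arrays lie on both sides.

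Kl, the one of these 5 markers detected on all 12 arrays, differed by -2.61 on beadchip 1 and -2.79 on beadchip 2, and by -2.70 among ethanol and -2.53 among control mice. The single Ttr-low array on beadchip 2 was control replicate 4. In whole tissue, fewer cells of a type and less RNA per cell cannot be told apart.

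Over all transcripts, 274 of 11806 genes (2.32%) were lower and 32 (0.271%) higher in the Ttr-low arrays, past a Benjamini-Hochberg adjusted p of 0.05 by limma with group as a covariate. Together they were 306 genes (2.59%). Of the lower genes 90 had another tested probe, and in 45 of them another probe was called lower too. Among the higher genes 10 had another tested probe, and in 2 of them it was called higher too. In 0 genes of either direction was another probe called the opposite way. In probes the counts were 422 lower (1.89%) and 88 higher (0.394%) of 22336, or 510 (2.28%) in either direction. The arrays of the 2 sides did not overlap in 330 genes lower (2.8%) and 118 genes higher (0.999%) in the Ttr-low arrays. The arrays were divided on a measured transcript, so these calls say which transcripts followed the division and test no condition. The directions differed in size. Of the lower genes 92 differed by over 2-fold, 27 by over 4-fold and 15 by over 8-fold, with a median of -0.74 (80, 27, 14 and -0.69 with genes not detected on 1 side set at their bound), while 1 of the higher genes passed 2-fold and their median was 0.46. At an unadjusted p under 0.05 stood 999 genes lower (8.46%) and 754 higher (6.39%), the shares against which such counts in the lists below are to be read. The median over all tested genes was 0.01, and 11576 of the 11806 genes differed by less than 1.5-fold.

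**Figure D2:**
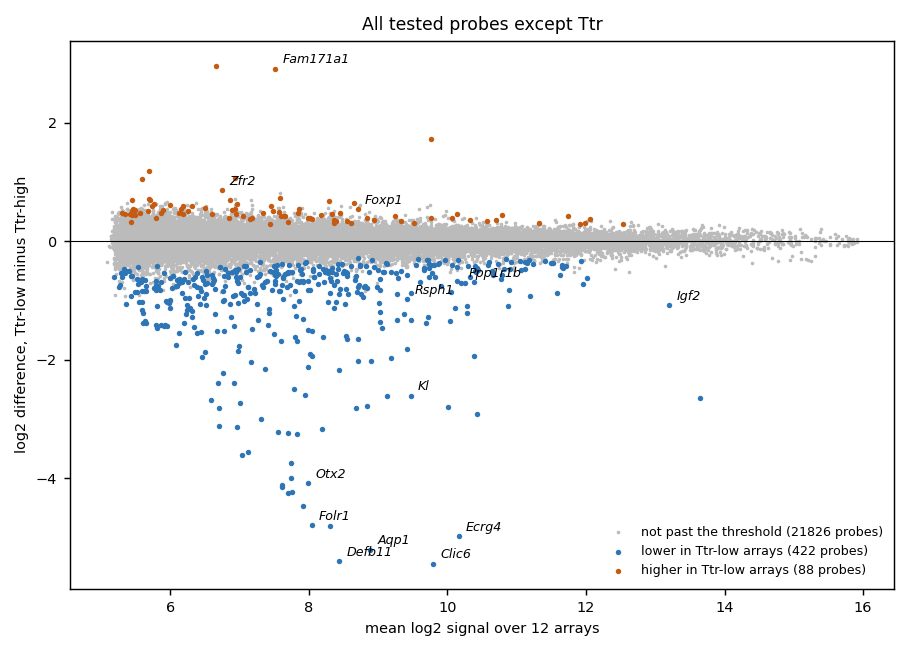
Log2 difference, Ttr-low minus Ttr-high, against the mean log2 signal over the 12 arrays for all tested probes except Ttr; blue points are the 422 probes lower and orange points the 88 probes higher in the Ttr-low arrays, and grey points did not pass the threshold. The blue points reach -5.44 at Clic6, while the orange points above 2 are both probes of Fam171a1.

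Of the 274 lower genes 35, and of the 92 lower by over 2-fold 30, were on the 7 lists of choroid plexus epithelium genes. These lists held 5, 12, 15, 12, 5, 7 and 4 tested members, some of them shared, among 11806 tested genes. None of the 32 higher genes was on them, which so few genes would often give. The lists were drawn up with earlier results of these data known, so these counts are a description only. All 274 lower genes had a negative difference on both beadchips and in both groups of mice, as the choice of called genes makes likely, with medians of -0.72 on beadchip 1 and -0.79 on beadchip 2. Within 1 beadchip fewer passed the test, 114 probes lower and 5 higher on beadchip 1, and 70 lower and 12 higher on beadchip 2. With the beadchip as a block the counts were 362 probes lower and 49 higher. Without control replicate 1 they were 323 lower and 40 higher, and without ethanol replicate 1, which stood apart on the second component, 389 lower and 81 higher.

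Genes that move ions and water were among the most reduced. Of 12 tested members of that list 8 were lower and 0 higher, with a median of -1.25; Aqp1 and Clic6 are 2 of them. Kcne2, the potassium channel subunit that sits in the apical membrane, read 5.29, 4.62, 4.84 and 4.71 on ethanol replicates 1 and 3 and control replicates 1 and 4, against 8.79 to 9.64 (median 9.07) on the Ttr-high arrays. It was detected on 0 of the 4 Ttr-low arrays and was at least 12.7-fold lower there (adjusted p = 2.36e-09 by limma). Slc13a4, a sulfate transporter, differed by -1.94, and the carbonic anhydrases Car14 and Car12, which supply bicarbonate, by -1.47 and -0.92. The cation channel Trpv4 differed by -1.29 and the chloride-bicarbonate exchanger Slc4a2 by -1.21. These last 5 genes were detected on all 4 Ttr-low arrays, apart from Trpv4 on 3.

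Carriers of vitamins, hormones and drugs were mixed. Of 15 tested members 7 were lower and 0 higher, with a median of -0.47. Steap1, of a family of metal reductases, was detected on 0 Ttr-low arrays and was at least 4.55-fold lower, and the monocarboxylate transporter Slc16a8 on 0 and at least 4.05-fold lower. The retinol dehydrogenase Rdh5 differed by -1.64, but its second probe by -0.03. The copper transporter Slc31a1 and Stra6, the cell surface receptor for retinol-binding protein, both differed by -0.71, and the thyroid hormone carrier Slco1c1 by -0.39. Stra6 lost its call without ethanol replicate 1 (adjusted p = 0.0746) or control replicate 4 (0.0696). Slco1c1 lost it without any one of ethanol replicates 1, 4, 5 and 6 and control replicates 1, 2, 3 and 4, with an adjusted p of up to 0.1. The organic anion transporter Slc22a8 did not pass the test at -0.56 (95% interval -1.05 to -0.06, adjusted p = 0.271); it read 7.02 and 6.86 on the ethanol arrays low in Ttr, 5.54 and 5.88 on the control arrays low in Ttr, and 6.35 to 7.34 on the Ttr-high arrays. Only the 2 control arrays lay below the Ttr-high range.

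Most secreted proteins were lower. Of 12 tested members 9 were lower and 0 higher, with a median of -2.56 (-2.40 with undetected genes at their bound). Ecrg4, the precursor of the peptide augurin, read 7.03, 6.76, 7.21 and 6.37 on the Ttr-low arrays, against 11.55 to 12.01 (median 11.84), a 31.5-fold lower signal. Ecrg4 remained detected on all 4 Ttr-low arrays. Wfdc2, a secreted protein of the whey acidic protein family, was at least 21.9-fold lower, Col8a1, a short-chain collagen, at least 12.3-fold and F5, coagulation factor V, at least 4.89-fold. Each of the 3 was detected on 0 Ttr-low and 8 Ttr-high arrays; the second F5 probe differed by -1.13. Sostdc1, an antagonist of BMP and Wnt signals, differed by -2.80, Lbp, which binds bacterial lipopolysaccharide, by -2.50, and Igfbp2, which binds insulin-like growth factors, by -1.98. Igf2, the growth factor itself, read 12.46, 12.69, 12.50 and 12.29, against 13.20 to 13.95, a log2 difference of -1.08 on a bright probe.

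Among receptors and membrane enzymes 4 of 5 tested genes were lower, with a median of -1.50. Trpm3, a cation channel, differed by -3.75 on its brightest probe; 3 of its 6 other tested probes passed the test, and the smallest difference was -0.20. Calml4, a calmodulin-like protein, differed by -3.23 and like Trpm3 was detected on 1 Ttr-low array. Lower too were Ace, the angiotensin-converting enzyme, by -1.50, and Cd59a, an inhibitor of complement, by -1.39. Ptgds, the prostaglandin D synthase that meningeal cells also make, did not pass the test at -0.13 (95% interval -0.81 to 0.54).

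Of 7 tested genes of junctions and keratins 4 were lower, with a median of -1.38 (-0.65 with undetected genes at their bound). Cldn2, the pore-forming claudin of leaky epithelia, read 4.87, 4.70, 5.08 and 4.76, against 8.39 to 9.25 (median 9.09), and was at least 11.7-fold lower. Cldn1 differed by -1.62. Of the paired keratins of simple epithelia, Krt8 differed by -1.54 and was detected on 2 Ttr-low arrays, and Krt18 was detected on 0 Ttr-low and 7 Ttr-high arrays and was at least 1.57-fold lower. F11r, Ocln and Cdh1, which brain endothelium or other epithelia share, did not pass the test at -0.42, -0.28 and 0.01. F11r passed it without ethanol replicate 3 (adjusted p = 0.0391), and Cdh1 had no stable sign over the alternative settings.

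Of 4 tested transcription factors 3 were lower, Otx2, Msx1 at -2.03 and Lmx1a, with a list median of -1.48 (-1.16 with Lmx1a at its bound). Lmx1a was detected on 0 Ttr-low and 7 Ttr-high arrays and was at least 1.22-fold lower. Msx1 and Lmx1a both pattern the dorsal midline from which the choroid plexus forms. The second Msx1 probe differed by -0.22 and did not pass the test. Otx1, the cortical relative of Otx2, read 9.33, 9.33, 9.12 and 9.08, against 8.86 to 9.40, a difference of 0.05 that did not pass the test and whose sign turned with the beadchip as a block (-0.02).

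Otx2 is a DNA-binding protein, and the promoters of the lower genes were searched for TAATCC on either strand (GGATTA when read on the other), the core that OTX homeodomains bind. RefSeq windows from 250 bases before to 50 bases after a start were used on GRCm38.p6, where 225 of the 274 lower genes had 285 promoters. The motif stood in 32 of these 285 (11.2%) and in 16 of 104 promoters of genes lower by over 2-fold (15.4%), against 722 of 12248 promoters of all tested genes (5.89%) and 2320 of all 32851 promoters (7.06%). It stood in 2 of 33 promoters of the higher genes (6.06%). The same letters in reversed order, CCTAAT or ATTAGG, stood in 7.02%, 8.65%, 5.32%, 7.16% and 9.09% of the same sets in that order. Median GC content was 57.3% in the lower and 60.3% in all tested genes. A match is a description of the letters and not a binding site. Overlapping promoters of a gene were counted separately, so the same site can count more than once, as in Gstt3 and Mest. The 250 bases upstream of 4 described genes with a match are shown, Otx2 at chr14:48665110-48665359 (minus strand), Rbm47 at chr5:66151955-66152204 (minus strand), Ace at chr11:105967698-105967947 (plus strand) and Car14 at chr3:95904686-95904935 (minus strand), each 5′ to 3′ with the motif in capitals.
Otx2: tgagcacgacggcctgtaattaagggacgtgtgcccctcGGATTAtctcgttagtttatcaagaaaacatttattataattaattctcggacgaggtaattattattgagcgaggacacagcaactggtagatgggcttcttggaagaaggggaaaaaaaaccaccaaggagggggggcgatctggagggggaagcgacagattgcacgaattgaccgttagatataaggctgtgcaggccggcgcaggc
Rbm47: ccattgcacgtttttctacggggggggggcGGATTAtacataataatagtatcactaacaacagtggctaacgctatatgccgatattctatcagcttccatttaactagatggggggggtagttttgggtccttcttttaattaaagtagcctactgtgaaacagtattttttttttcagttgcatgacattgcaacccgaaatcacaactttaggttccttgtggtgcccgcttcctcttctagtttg
Ace: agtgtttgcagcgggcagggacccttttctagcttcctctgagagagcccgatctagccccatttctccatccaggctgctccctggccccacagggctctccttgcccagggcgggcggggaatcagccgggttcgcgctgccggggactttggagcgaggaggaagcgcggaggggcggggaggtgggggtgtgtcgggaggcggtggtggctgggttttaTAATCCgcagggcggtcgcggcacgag
Car14: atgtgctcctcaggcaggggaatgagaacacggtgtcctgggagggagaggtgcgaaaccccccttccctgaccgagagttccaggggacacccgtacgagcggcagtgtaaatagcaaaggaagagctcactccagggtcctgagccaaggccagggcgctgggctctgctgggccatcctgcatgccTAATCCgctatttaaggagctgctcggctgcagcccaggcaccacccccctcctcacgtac

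Counted from the start of transcription, the motif begins at -27 in Ace, at -211 in Otx2 and at -220 in Rbm47, so the matches do not share a position.

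The remaining genes among the 15 most reduced were on no list. Defb11, of the beta-defensin family of antimicrobial peptides, read 4.95, 4.64, 4.98 and 4.79, against 9.87 to 10.61 (median 10.36), and was at least 27.6-fold lower. It was detected on 0 of 4 Ttr-low and 8 of 8 Ttr-high arrays. Rbm47, an RNA-binding protein of epithelia, differed by -3.17 and Inmt, an N-methyltransferase of indoleamines, by -3.00. Inmt was detected on 1 Ttr-low array. Scara5, a receptor for ferritin, was detected on 0 Ttr-low arrays and was at least 4.10-fold lower. In all, 21 of 11806 genes (0.178%) were detected on 0 Ttr-low and all Ttr-high arrays.

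Another group of lower genes was chosen after the values were seen. It includes Sulf1, which trims heparan sulfate (-2.81), the mitochondrial subunit Cox8b (-2.74), the collagen chain Col8a2 (-2.59, with a second probe at -0.45), Wfikkn2, which binds myostatin-like ligands (-2.40), the basement membrane protein Nid2 (-1.68) and the zinc importer Slc39a4 (-1.53). Cox8b, Wfikkn2 and Slc39a4 were each detected on 1 Ttr-low array. Ins2, the insulin gene, was detected on 0 Ttr-low arrays and was at least 1.76-fold lower. The imprinted genes Cdkn1c and Mest differed by -1.13 and -1.10, beside -1.08 for Igf2, which is imprinted too. The other 2 Mest probes differed by -0.50 each without passing the test. Cd55, which restrains complement like Cd59a, differed by -1.06. Trf, the transferrin that both choroid plexus and oligodendrocytes make, differed by -0.88; control replicate 1 at 11.91 lay inside the Ttr-high range of 11.51 to 12.12, and the call was lost without any one of ethanol replicates 1 to 5 and control replicates 4, 5 and 6, with an adjusted p of up to 0.111. An unnamed probe, ILMN_2954474, had a mean log2 signal of 11.88 in the Ttr-low and 14.52 in the Ttr-high arrays, a difference of -2.64.

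Ependymal and cilia genes were lower in part. Of 21 tested members 9 were lower and 0 higher, with a median of -0.41. Dynlrb2, a dynein light chain, read 8.08 and 6.98 on ethanol replicates 1 and 3 and 8.28 and 7.12 on control replicates 1 and 4, against 8.45 to 9.11. Rsph1, of the radial spokes of cilia, read 9.24, 8.38, 9.04 and 8.41, against 9.38 to 10.22. For both genes ethanol replicate 1 and control replicate 1 lay just under the Ttr-high range and the other two Ttr-low arrays well below it. Mia, a small secreted protein, differed by -1.82, the cilia gene Pifo by -1.43, Cfap52 by -1.08, Cfap126 by -1.05 and the tektin Tekt1 by -1.01. Spag16 was detected on 0 Ttr-low and 7 Ttr-high arrays and was at least 1.40-fold lower. Dynlrb2 lost its call without ethanol replicate 3 (adjusted p = 0.0726) or control replicate 4 (0.0659), and Cfap52 without control replicate 1 (0.0625) or control replicate 4 (0.061). Foxj1, the regulator of motile cilia, did not pass the test at 0.29. Foxj1 was on the list and is named after its values were seen.

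**Figure D3:**
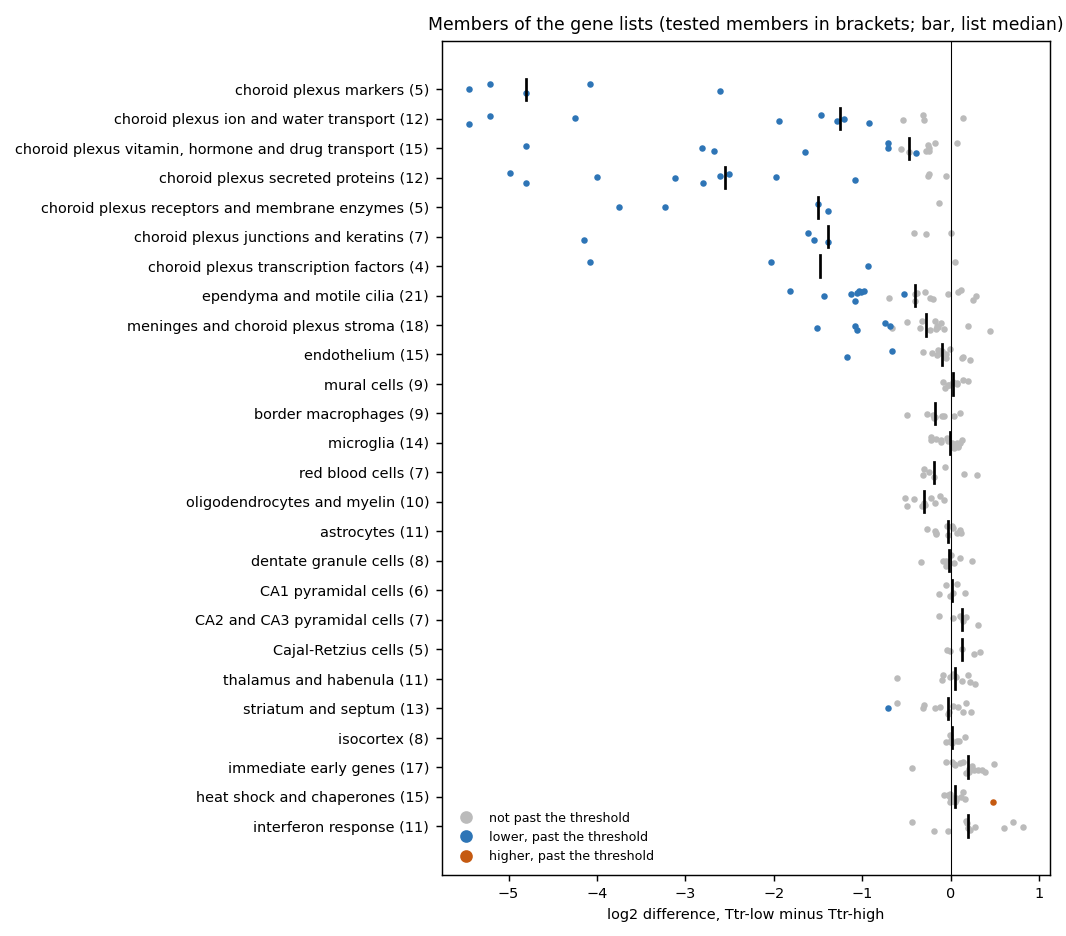
Log2 differences, Ttr-low minus Ttr-high, of the tested members of 26 gene lists, 1 point per gene, with black bars at the list medians; blue members were lower and orange members higher past the threshold. Medians run from -4.80 for the markers (-4.19 with Folr1 at its bound) to 0.20 for the interferon response, and blue points outside the choroid plexus, ependyma and stroma rows are 2 endothelial genes and 1 striatal gene.

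Stroma and vessels followed in part. Of 18 tested meningeal and stromal genes 5 were lower, with a median of -0.28. They are Pcolce, which speeds collagen maturation (-1.51), Igf2, the small proteoglycan Ogn (-1.06), the fibrillar collagen Col3a1 (-0.74) and the proteoglycan Bgn (-0.68), the last of them named after its values were seen. Col3a1 lost its call without any one array other than ethanol replicates 2 and 3, with an adjusted p of up to 0.141. Of 15 endothelial genes 2 were lower, Esm1, a secreted proteoglycan of endothelium (-1.17), and Pltp, a phospholipid transfer protein (-0.66). Summed linear signal of the stromal list was 11246.7 to 13715.2 on the Ttr-low arrays, against 16490.9 to 24838.2 on the Ttr-high arrays, a sum in which Igf2, also on the secreted list, was the brightest member. As a mean of log2 signals the list lay -0.54 and -0.13 from the Ttr-high mean on ethanol replicates 1 and 3 and -0.54 and -0.40 on control replicates 1 and 4, against -0.26 to 0.15 on the single Ttr-high arrays, so ethanol replicate 3 lay inside their range. Pericyte and muscle genes of the vessel wall were not among the lower genes, with 0 of 9 called by limma, 0 at an unadjusted p under 0.05 and a median of 0.03.

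No gene of the hippocampal neuron lists passed the test. The lists of dentate granule cells, CA1 pyramidal cells, CA2 and CA3 pyramidal cells and Cajal-Retzius cells had 0 calls by limma among 8, 6, 7 and 5 tested members, with medians of -0.02, 0.01, 0.12 and 0.13. At an unadjusted p under 0.05 there were 2 dentate genes, 1 in each direction, and 1 higher gene of CA2 and CA3. The members with the greatest difference were Npy5r at -0.33, Pou3f1 at 0.17, Nectin3 at 0.31 and Cxcr4 at 0.33. Astrocytes and microglia had 0 calls by limma among 11 and 14 genes, also 0 at an unadjusted p under 0.05, and medians of -0.03 and -0.01; S100b differed by -0.27 and Olfml3 by -0.22.

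Neighbouring regions that a dissection can include were read in the same way. Thalamus and habenula had 0 calls among 11 genes and isocortex 0 among 8 by limma, also 0 at an unadjusted p under 0.05, with Zic1 at -0.61 and Fezf2 at 0.17. Of 13 genes of striatum and septum 1 was lower, Ppp1r1b, the dopamine-regulated phosphatase inhibitor DARPP-32. It read 9.83, 9.67, 9.76 and 9.64, against 10.21 to 10.64 (median 10.43), a difference of -0.70 ± 0.09 (adjusted p = 0.000357 by limma). All 4 Ttr-low arrays lay below all 8 Ttr-high arrays for Ppp1r1b; its second probe differed by -0.74 without passing the test. The other 12 members did not pass the test. As a mean of log2 signals this list lay 0.29 and -0.35 from the Ttr-high mean on ethanol replicates 1 and 3. It lay at -0.04 and -0.40 on control replicates 1 and 4, and at -0.31 to 0.42 on the single Ttr-high arrays. Isl1, a homeobox gene of striatal neurons, read 7.51 and 4.83 on the ethanol and 6.69 and 4.80 on the control arrays low in Ttr, against 4.59 to 8.37 on the Ttr-high arrays, and was detected on 2 of 4 and 5 of 8.

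No oligodendrocyte gene passed the test. Of 10 tested members 0 were called by limma and 4 were lower at an unadjusted p under 0.05, and all 10 differences were negative, with a median of -0.30. Mal, a myelin protein, read 11.29, 11.25, 11.93 and 11.48, against 11.50 to 12.34, and its difference of -0.51 passed the test in the authors' processed values (adjusted p = 0.0316). The list mean lay below the Ttr-high mean by -0.51 and -0.43 on ethanol replicates 1 and 3 and by -0.39 on control replicate 4, but above it by 0.16 on control replicate 1. Border macrophages, which live in choroid plexus and meninges, had 0 of 9 genes called by limma, 0 at an unadjusted p under 0.05 and a median of -0.18, with Pf4 at -0.49. Red blood cells had 0 of 7 called, 0 at an unadjusted p under 0.05, and Hba-a1 at -0.32. Mural Abcc9 stood at 0.20.

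Immediate early genes had 0 of 17 called by limma, 2 higher at an unadjusted p under 0.05, and a median of 0.20; Egr2 differed by 0.49. Their list mean was -0.23 on ethanol replicate 1 and 0.39 on control replicate 4 relative to the Ttr-high mean. Interferon response genes had 0 of 11 called and 3 at an unadjusted p under 0.05, of which 2 were higher. Oasl2, an interferon-induced gene, read 8.30 and 7.41 on the ethanol and 7.35 and 9.45 on the control arrays low in Ttr, against 6.81 to 7.61 on the Ttr-high arrays. Control replicate 4 and ethanol replicate 1 carried that difference, and the interferon list mean on control replicate 4 was 0.85 above the Ttr-high mean.

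Fam171a1, which encodes a membrane protein, was the single gene higher by over 2-fold. It read 9.52 and 9.46 on ethanol replicates 1 and 3 and 9.31 and 9.53 on control replicates 1 and 4, against 6.21 to 6.82 (median 6.52) on the Ttr-high arrays, a difference of 2.91 ± 0.11 (7.51-fold, adjusted p = 1.36e-09 by limma). Its second probe read 8.51, 8.86, 8.49 and 8.68, against 5.27 to 6.06, a difference of 2.96. Both probes put the 4 arrays in 1 narrow band and the other 8 in another, with a difference of 2.81 on beadchip 1 and 3.03 on beadchip 2.

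The other named higher genes were small shifts. Zfr2, a zinc finger protein, differed by 0.86, with a second probe at 0.18, the olfactory receptor Olfr159 by 0.69, Chid1, of the chitinase fold, by 0.65, with a second probe at -0.09, and the adhesion receptor Adgrl2 by 0.60. Foxp1, a forkhead transcription factor, read 9.08, 9.24, 9.09 and 8.85, against 8.27 to 8.67, a difference of 0.54, and its second probe differed by 0.14. Spry4, an inhibitor of receptor tyrosine kinase signals, differed by 0.52, the protocadherin Pcdha5 by 0.51, and Ddit3, the stress factor CHOP, by 0.48, as 1 of 15 tested heat shock and chaperone genes. The second probes of Ddit3 (0.26) and of Tle3 (0.02), named next, did not pass the test. Tle3 (0.55), Gp1bb (0.54), Mss51 (0.51), Zfp940 (0.48) and Ddias (0.47) lost their calls in at least 6 of the 12 fits without 1 array, with adjusted p-values of up to 0.112, 0.102, 0.152, 0.135 and 0.116. Ddit3 (0.0527), Spry4 (0.0509) and Il1f10 (0.0673) lost theirs without ethanol replicate 3, and Pcdha5 without control replicate 1 (0.072) or control replicate 4 (0.0722). Il1f10, of the interleukin 1 family, differed by 0.47 and was the 1 gene (0.00847%) detected on all Ttr-low and 0 Ttr-high arrays, at least 1.14-fold higher. Olfr159 was detected on 1, Mss51 on 2 and Pcdha5 on 4 of the 8 Ttr-high arrays, so their differences include arrays without detection.

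At the level of probes 6 were higher by over 2-fold. They were both Fam171a1 probes, 1 probe each of Anxa7 (1.19), Rpain (1.06) and Twnk (1.05), and the unnamed probe ILMN_2599997. The other probes of these 3 genes stood near 0, at -0.09 for Anxa7, -0.07 and 0.03 for Rpain and 0.08 for Twnk. ILMN_2599997 had a mean log2 signal of 10.92 in the Ttr-low and 9.19 in the Ttr-high arrays, a difference of 1.72. These probes were named after their values were seen.

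**Figure D4:**
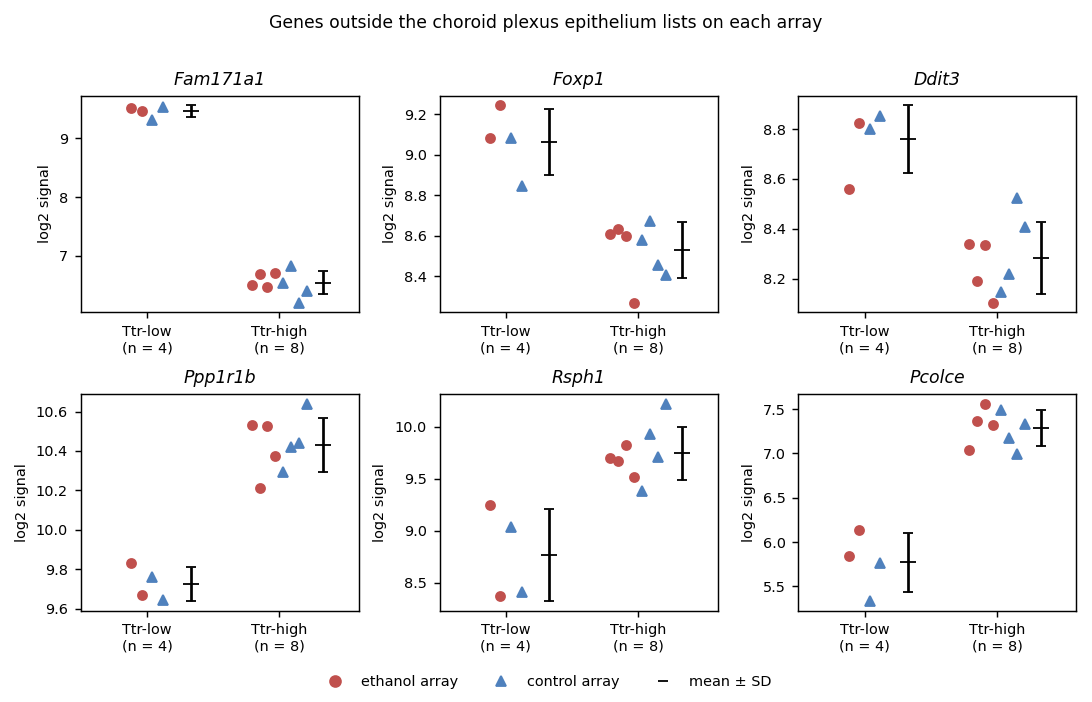
Log2 signal of 6 genes outside the choroid plexus epithelium lists on each array, Ttr-low arrays left of Ttr-high arrays; circles are ethanol and triangles control arrays, and bars give mean ± SD. Fam171a1, Foxp1 and Ddit3 lie above and Ppp1r1b, Rsph1 and Pcolce below the Ttr-high arrays on all 4 Ttr-low arrays.

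The 4 Ttr-low arrays were not alike in what was left. Of the 5 markers only Kl was detected on all 4 Ttr-low arrays, so undetected probes enter their mean there. That mean lay -4.01 and -4.77 from the Ttr-high mean on ethanol replicates 1 and 3, and -4.06 and -4.88 on control replicates 1 and 4. The ependymal list, at -0.36, -0.73, -0.46 and -0.73, ran in the order of that mean except that ethanol replicate 3 and control replicate 4 were level. The level of Ttr ran in that order but for the place of ethanol replicate 1 and control replicate 1. The order was not particular to these lists. Striatum and septum (0.29, -0.35, -0.04 and -0.40) and thalamus and habenula (0.24, -0.03, -0.02 and -0.14) held it too. In thalamus and habenula ethanol replicate 3 and control replicate 1 were almost level. Isocortex did not (-0.08, 0.23, -0.09 and 0.10). Nor did Kl, at 7.57, 7.79, 8.04 and 7.50, with control replicate 1 highest and ethanol replicate 1 below ethanol replicate 3. Among 69 genes lower by over 2-fold and detected on at least 1 Ttr-low array, ethanol replicate 1 had the highest signal of the 4 in 30 (43.5%) and control replicate 4 the lowest in 28 (40.6%). A gene that entered through detection on 1 array tends to be highest on that array, so the filter partly set these shares. They have no share over all tested genes under the same filter beside them. Ethanol replicate 1 was not most often highest, nor control replicate 4 most often lowest, under a stricter filter. Among the 203 lower genes detected on all 4 Ttr-low arrays, ethanol replicate 3 was highest in 71 (35.0%) and ethanol replicate 1 in 59 (29.1%), and ethanol replicate 1 was lowest in 63 (31.0%) and control replicate 4 in 56 (27.6%). Over 10464 tested genes with the same detection, ethanol replicate 1 was highest in 30.7% and lowest in 30.8%.

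Comparing ethanol with control mice asks whether exposure before birth left a difference at 3 weeks, and the division gives it a second source of spread. With the division as a term, 0 of 22337 probes (0%) passed the test by limma, the lowest adjusted p was 0.302, and 1251 probes had an unadjusted p under 0.05. Without it 0 passed, the lowest adjusted p was 0.816 and 1069 had an unadjusted p under 0.05; 5% of the probes is 1117. Each side of the division holds equal numbers of ethanol and control arrays, which fixes that the term leaves the size of every ethanol difference as it was and changes only its error. Over all 22337 probes the median SE of ethanol minus control was 0.104 with the term and 0.110 without it. Among the 274 lower genes it was 0.108 with the term and 0.221 without it, a fall that follows from how these genes were chosen.

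**Figure D5:**
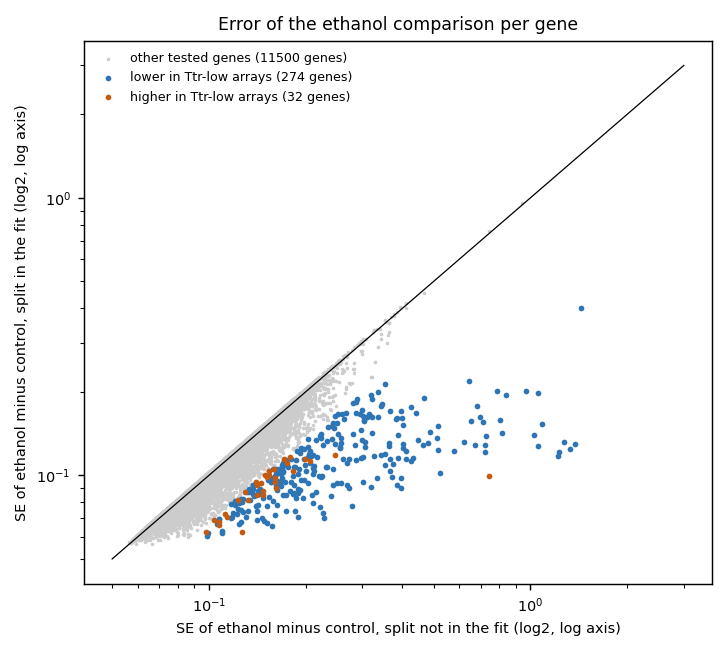
Standard error of ethanol minus control per gene (log2, both axes logarithmic), with the division by Ttr in the fit on the vertical and without it on the horizontal axis; blue genes were lower and orange genes higher in the Ttr-low arrays, and the line marks equal errors. The 274 blue genes lie below the line, as their choice by the same term makes likely, while over all probes the median SE is 0.104 with the term and 0.110 without it.

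The lowest adjusted p with the term, 0.302 by limma, belonged to a probe of Tmem241 (0.48) that does not represent its gene; the genes named next are ranked over representative probes. With the term, Fam167a differed by -0.49 (95% interval -0.67 to -0.30, adjusted p = 0.585 by limma), Wfdc10 by -0.42, the cold-inducible RNA-binding gene Rbm3 by -0.62 and 4833438C02Rik by 0.41. Among the 8 Ttr-high arrays alone 0 of 22337 probes (0%) passed by limma and 1119 had an unadjusted p under 0.05. Pik3r4, a regulatory subunit of the lipid kinase Vps34, had the lowest adjusted p there, 0.281 by limma, over all probes, with means of 7.30 ± 0.06 in ethanol and 6.65 ± 0.09 in control arrays (SD, n = 4 each) and a difference of 0.65. The muscarinic receptor gene Chrm2 (-0.59), the RNA sensor gene Dhx58 (0.49) and H2-DMb1 (-0.57) followed. Of the 8 Ttr-high arrays Chrm2 was detected on 5, Dhx58 on 4 and H2-DMb1 on 7. Wfdc10 was detected on 3 Ttr-low and 5 Ttr-high arrays, 4833438C02Rik on 3 and 6, and Rbm3 on 4 and 6. The ethanol differences of these 6 genes therefore include arrays without detection.

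Whether the gap between Ttr-low and Ttr-high arrays differed between ethanol and control mice was tested by an interaction term, with 2 Ttr-low and 4 Ttr-high arrays in each group. By limma 0 of 22337 probes (0%) passed, with 1599 at an unadjusted p under 0.05, and 2 passed without ethanol replicate 3. The lowest p-values belonged to probes of Erich3 (1.30) and Cdk14 (-1.19) that do not represent their genes. Among representative probes, Dysf, a membrane repair gene, had the smallest p, followed by Nmb, Plekhs1 and Col18a1. Plekhs1 was detected on only 2 Ttr-low and 3 Ttr-high arrays. Col18a1, the collagen of basement membranes, averaged 8.12 in ethanol and 7.71 in control mice among Ttr-low arrays, and 8.49 in ethanol and 8.94 in control mice among Ttr-high arrays, an interaction of 0.85 (95% interval 0.49 to 1.22, adjusted p = 0.648 by limma). Over both groups it was lower in the Ttr-low arrays by -0.80, with a second probe at -0.26.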

How the data were processed

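Per the file headers, the deposited scanner table gives for 45281 probes and 12 arrays a bead intensity, linear and not normalized (medians 132.6 to 152.1), with a detection p-value. The authors also deposited a table of processed intensities, all with a median of 141.6 and each ranking probes as its own array did (Spearman correlation at least 0.999999, at most 0.935 with another array), which points to quantile normalization with no background subtracted. They chose the arrays. The submitters' processing notes name GenomeStudio 1.9.0 without settings.

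Scanner intensities were background-corrected with limma 3.58.1 in R 4.3.3 (nec, normexp through detection p-values), offset by 16, quantile normalized and taken to log2. Probes with a detection p under 0.05 on at least 4 of 12 arrays were tested, 22337 in all. Through the platform annotation, with symbols updated by Entrez number against GRCm38.p6, 18898 had 1 gene, 9 several and 3430 none, which gave 11807 genes with Ttr. The brightest probe over 12 arrays stood for a gene. Fits used lmFit and eBayes with Benjamini-Hochberg adjustment over all probes and intervals of 95%. The number of arrays limits the precision. Array pairs correlated at 0.981 to 0.993, and none was a duplicate.

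Members, 26 gene lists and rules were chosen with earlier results of these data known. Genes named were the 6 markers, the 15 most lower and 15 most higher, up to 8 members of each choroid plexus or ependyma list and up to 4 of others, up to 4 per ethanol comparison, and up to 10 not detected on Ttr-low arrays; for lists without a call this was limited to 1 after the values were seen. On simulated data for the Ttr-low and Ttr-high comparison, with 200 of 22337 probes changed, 46.4% of changes of 0.5 and 91.4% of changes of 1 (log2) were recovered, and 5.43% of calls were false. The simulated noise was independent between probes and the division was fixed beforehand. These shares therefore give no false-call rate for the measured arrays, which were divided on their own signal. The labels do not say whether replicate numbers pair the arrays. Deviations of same-numbered arrays from their group means correlated at -0.235 to 0.319, and at -0.22 to 0.169 with the division removed. The arrays were therefore fitted as unpaired. Alternatives covered scaling, background, offset, detection filter, beadchip, replicate number, group covariate and leaving out each array.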

Additional observations from a re-analysis of the deposited data

Results flagged for a closer look

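Among 226 groups of values, 4 Ttr-low or 8 Ttr-high arrays per named gene, 9 had 1 array far from the rest of its side by Dixon's criterion, which chance gives in about 1 in 20 groups. On the Ttr-high side the low values were Ttr at 15.565 on control replicate 3, Rbm47 at 8.6838 on ethanol replicate 4, Ptgds at 10.477 on ethanol replicate 6, Col3a1 at 5.3762 on ethanol replicate 2 and Pou3f1 at 10.284 on control replicate 6. Nectin3 was high there at 10.956 on ethanol replicate 6. On the Ttr-low side Pltp was high at 7.2041 and the microglial gene Olfml3 low at 8.0976, both on ethanol replicate 1, and Ins2 was low at 4.7183 on control replicate 4, where it was not detected. All are log2 signals.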

How the results depend on the processing

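The low-minus-high count of 510 probes (422 lower, 88 higher) was 447 after median scaling, 632 with an offset of 50, 435 to 516 under other detection filters and 541 without the group covariate. Higher probes were 179 in the authors' processed values and also without background correction, where 581 were lower, and 49 with the beadchip as a block, where 362 were lower. With the replicate number as a block, a pairing that the labels do not state, 106 probes were called, 101 lower and 5 higher. Within beadchip 1 there were 119 (114 lower, 5 higher) and within beadchip 2 there were 82 (70 lower, 12 higher), with fewer arrays. Leaving out 1 array gave 363 to 493 probes, 323 to 398 lower and 40 to 95 higher; higher probes were 40 without control replicate 1, 50 without ethanol replicate 3, 54 without ethanol replicate 4 and 51 without ethanol replicate 5. Of the 422 lower probes 300 were called without control replicate 1 and 94 with the replicate block. The ethanol counts stayed at 0 under every alternative run, and the interaction at 0 to 2. Of 80 named genes past the threshold, Ttr among them, 45 kept their call with the replicate block and 45 within beadchip 1. Of the probes called over all arrays 1 turned sign, within beadchip 2, and 0 under the other alternatives run for that fit. Among named genes, signs turned for uncalled ones. Cdh1 was -0.00208 in the authors' values, -0.00228 without background correction, -0.00199 at offset 50, -0.145 with the replicate block, -0.0467, -0.0823 and -0.0274 without ethanol replicates 3 and 6 and control replicate 2, and -0.267 within beadchip 2. Otx1 was -0.0195 with the beadchip block and -0.0740 within beadchip 1. Without 1 array, Olfml3 ran from -0.366 to 0.0130 (without ethanol replicate 1), Ptgds from -0.341 to 0.148 (without control replicate 1) and Cdh1 from -0.0823 to 0.0594. Within beadchip 2, with 1 Ttr-low array, Ocln was 0.0659, Abcc9 -0.151, Pf4 0.504, Hba-a1 0.241, S100b 0.251 and Npy5r 0.171. The cause of these shifts was not tested. Leaving out a Ttr-low array does not alter the fit of the 8 Ttr-high arrays and was not run for it. Signal over background limits genes not detected on Ttr-low arrays to bounds.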
